A study of Mus musculus with 37 samples.

Results

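CD numbers (cluster of differentiation) name cell surface molecules by the antibodies that recognise them, and 28 genes whose symbol is Cd followed by a number made up the set described here. They were all genes with such a symbol among the 6509 genes of the deposited table, apart from 5 that a list of exclusions took out (the list held Cd4, Cd68, Cd69, Cd70, Cd74, Cd79b, Cd1d1, Cd1d2 and Cd2ap, not all of them in the table). The 28 genes had 94 of the 16993 named transcripts. Each gene's value was the sum of its transcripts, and all 28 reached a value of 10 in at least 1 group. The choice rests on names alone. CD molecules whose mouse gene has another symbol are outside it, and Cd2bp2, an intracellular protein named for its binding to the tail of Cd2, is inside it although it is no surface molecule.

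RNA-seq was done on 5 myeloid cell types of C57Bl6cJ mice: thioglycollate-elicited, adherent peritoneal macrophages, bone marrow neutrophils kept overnight with GM-CSF, splenic dendritic cells (sDCs) enriched on magnetic beads, and 2 cell types derived in culture from bone marrow, mast cells and eosinophils. Macrophages, neutrophils, sDCs and mast cells were untreated, given the anti-inflammatory cytokine IL-10 at 100 ng/ml for 4 h, given the bacterial endotoxin LPS at 100 ng/ml for 4 h, or given IL-10 for 4 h and then LPS for a further 4 h. Eosinophils were untreated or given LPS. By the study's scheme the groups with LPS were harvested later than those without, so LPS and longer culture cannot be told apart, and among macrophages 1 of the replicates without LPS, with or without IL-10, was an earlier library. All sDC libraries and 1 of the replicates of each mast cell group used another preparation kit than the rest, so cell type and kit cannot be told apart for sDCs. Each of the 18 groups had 2 libraries from different pools of mice, and the table gives only their mean, so no value here has an SD, no difference was tested against replicates, and each change is given by size. A change is called raised or lowered where it was at least 2-fold on log2(value + 1). Values are GC-normalised tag counts without division by transcript length, so a gene is compared between groups and never with another gene.

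Surface molecules of this kind decide what a myeloid cell can sense, bind and tell a T cell. Endotoxin, sensed by Toll-like receptor 4, is known to make macrophages and dendritic cells display more of the co-stimulatory molecules Cd40, Cd80 and Cd86, and IL-10, acting through the transcription factor STAT3, is known for holding this activation back. Other CD molecules are scavenger receptors, adhesion receptors, ectoenzymes, inhibitory receptors and tetraspanins, small membrane proteins that organise other proteins in the membrane.

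The labelled cell types were checked against marker genes, of which the table holds a minority. Eosinophil markers (3 of 11 listed) summed to 280958 to 308542 in eosinophils and mast cell markers (3 of 10) to 277675 to 325478 in mast cells, far above the other cell types. The sum of macrophage markers (3 of 10) did not single out macrophages, at 21995.5 to 35484.5 there, 14344 to 22520.5 in eosinophils and up to 15033 in neutrophils. Outside macrophages it came mostly from Emr1 (14338.5 and 22514.5 in eosinophils). The other 2 did single them out, Marco at 2002 to 5425.5 against at most 241 elsewhere and Mrc1 at 1998 to 14121.5 against at most 773.5. Neutrophil markers (5 of 12) summed to 51487.5 to 213494 in neutrophils, at most 9149.5 elsewhere. Of these, Ly6g did not single out neutrophils, at 70.5 to 161.5 there and 188.5 and 114 in eosinophils. Eosinophil markers also reached 27197.5 to 30791 in neutrophils. The dendritic list (Itgax, Xcr1 and Clec9a, 3 of 9) did not single out sDCs, since it summed to 910.5 to 4508.5 in sDCs and 5485.5 to 13926 in macrophages, mostly from Itgax. Xcr1 did single them out, at 185.5 to 205.5 against at most 63.5 elsewhere. Clec9a did so without LPS (243.5 and 156.5, at most 100.5 elsewhere). With LPS it did not (49.5 and 27.5 in sDCs, 103.5 and 60 in neutrophils). In bulk samples, fewer cells of a type and less RNA per cell cannot be told apart.

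Cell type set most of the variation of these genes. The share of a gene's variance over the 18 groups that lay between cell types had a median of 90.4% over the 28 genes, against 6.39% for LPS within cell types and 1.50% for the remaining differences with IL-10. Over all 6509 genes the medians were 86.6%, 8.88% and 2.73%. Cd82 was the one member with more of its variance from LPS (66.7%) than between cell types (30.6%).

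**Figure D1:**
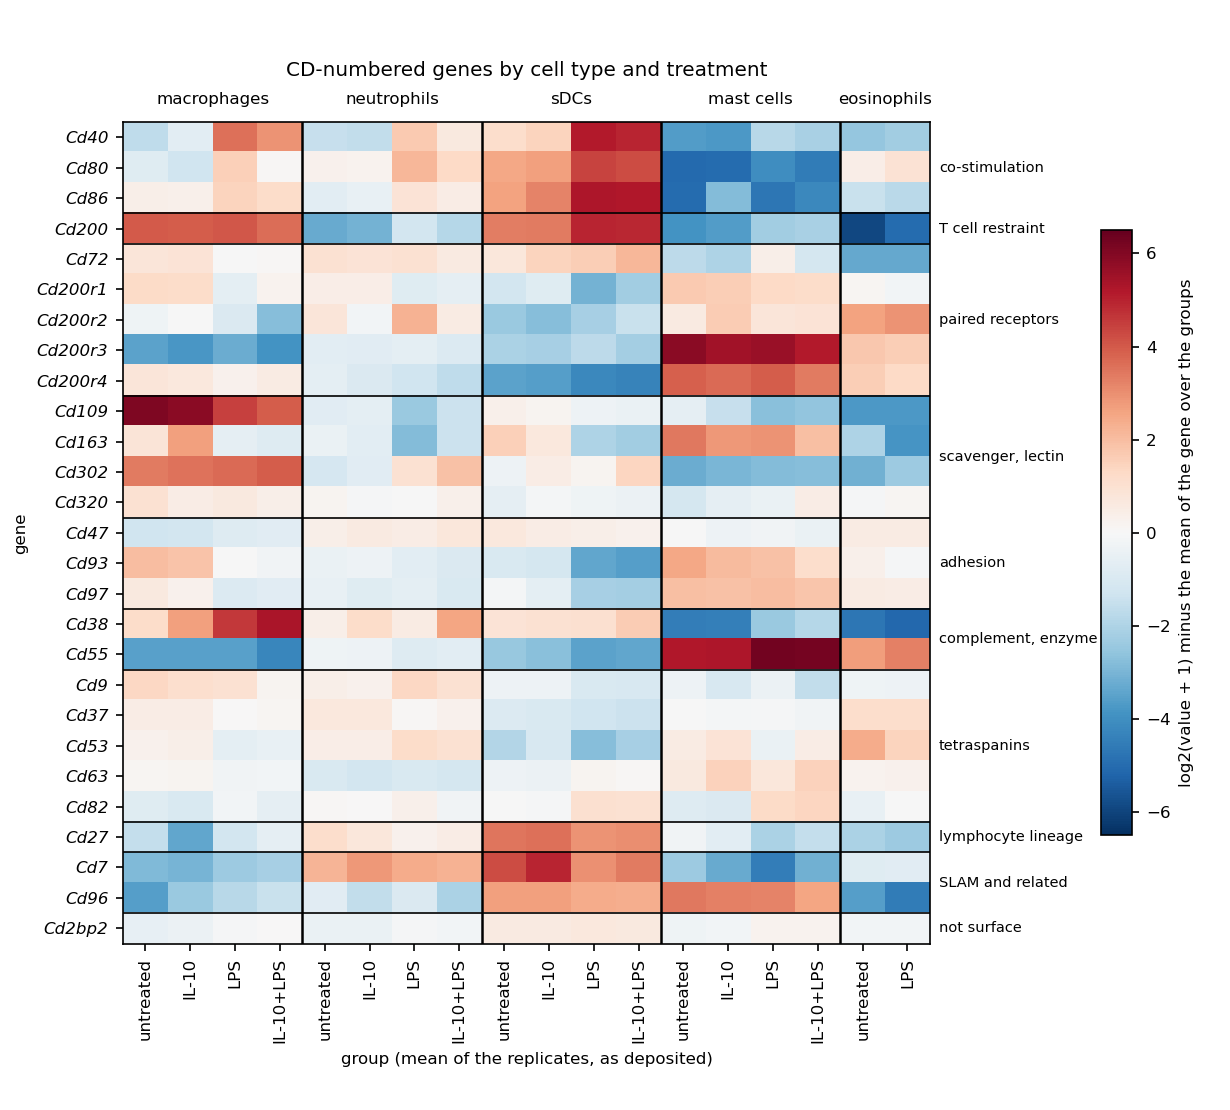
Each cell is log2(value + 1) of 1 of 27 genes in a group, minus that gene's mean over the 18 groups, with red above and blue below the mean. Genes stand in order of role and groups by cell type, and the colour changes more between cell types than between treatments of one cell type, apart from Cd82 (30.6% of variance between cell types).

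In untreated cells, 15 of the 28 genes had their highest value in a cell type at least 2-fold over the next, where 28.8% of all genes with an untreated value of 50 did. Mast cells led in 5 of the 28 (6.8% of all genes). Cd200r3, an activating relative of the CD200 receptor, was 16772 in mast cells, 960.5 in eosinophils and at most 173.5 in the other untreated cells, 17.4-fold over the next. Cd55, the decay-accelerating factor that protects cells from complement, was 57590.5 in mast cells, 10509 in eosinophils, 1296 in neutrophils, 289 in sDCs and 136.5 in macrophages. Cd97, an adhesion receptor coupled to G proteins whose known ligands include Cd55, was 17933.5 in mast cells and 7145 in macrophages. Cd200r4 (12391.5 against 2519 in eosinophils) and Cd163 (154 against 40.5 in sDCs) completed the mast cell group.

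The sDCs led in 5 others (7.99%). Among them were the co-stimulatory genes: Cd40 at 1824.5 against 290 in neutrophils, Cd80 at 2102 against 491.5 in eosinophils, and Cd86 at 2344 against 504 in macrophages. The other 2 were genes best known from lymphocytes, Cd7 (846.5, against 202.5 in neutrophils) and Cd27 (116, against 22 in neutrophils). Macrophages led in 2 (8.19%), namely Cd109, a GPI-anchored protein of the alpha-2-macroglobulin family (1775 against 32 in sDCs, 53.8-fold), and Cd302, a C-type lectin receptor (2733.5 against 205 in sDCs, 13.3-fold). Eosinophils led in 2 (2.95%), the tetraspanin Cd53 (122520 against 33963 in mast cells) and Cd200r2 (81.5 against 22 in neutrophils).

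Markers of lymphocytes were read beside Cd27, Cd7 and Cd96. The B cell transcription factor Pax5 was 615.5 to 762 in the neutrophil groups, 23 to 59.5 in sDCs, 2.5 to 44 in macrophages and at most 1.5 in mast cells and eosinophils. The T cell gene Bcl11b (1 of 10 in the table) was 171.5 to 208 in sDCs and at most 28 elsewhere, and the natural killer gene Klrk1 (1 of 6) was 357 to 910.5 in sDCs, where Cd7, Cd27 and Cd96 (299.5 untreated) were also found. The part of other cells in the values of Cd27, Cd7 and Cd96 was not tested.

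LPS was compared with no treatment to see which surface molecules endotoxin moved in each cell type. In macrophages, 6 of 26 genes with a value of 10 were raised and 5 lowered, where 12.7% of all genes were raised and 14.8% lowered. B cell and natural killer markers were also higher with LPS in the macrophage columns (Pax5 2.5 and 44, Ebf1 12 and 32.5, Klrk1 19.5 and 325). The T cell gene Bcl11b was not (3 and 2.5). The part of other cells in the macrophage counts of raised and lowered members was not tested. In neutrophils 6 of 27 were raised and 2 lowered (8.71% and 7.88% of all genes). In sDCs 5 of 27 were raised and 6 lowered (9.04% and 11.5%), and in mast cells 7 of 25 were raised and 2 lowered (4.76% and 5.46%). In eosinophils none of 22 was called in either direction (2.16% and 0.702%). The median log2 change of all genes was -0.15 in macrophages and -0.14 in sDCs, so each change there stands against that shift, and centring on it turned the sDC split from 5 raised and 6 lowered to 6 and 5.

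Of the 28 genes, 12 were raised by LPS in at least 1 cell type (20.2% of all genes) and 8 lowered in at least 1 (24.8%). In 3 or more cell types, 4 genes were raised (Cd40, Cd80, Cd86 and Cd200), against 3.9% of all genes, and 2 were lowered (Cd109 and Cd200r1), against 2.78%. Cd55 was raised in one cell type and lowered in another. In the cell types where they reached 10, 9 genes had no 2-fold change with LPS (58.6% of all genes), namely Cd9, Cd27, Cd37, Cd47, Cd63, Cd320, Cd2bp2, Cd200r3 and Cd200r4. Cd27 reached 10 in 2 of the 5 cell types, and in mast cells, under that minimum, it was 8 and 1.5.

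**Figure D2:**
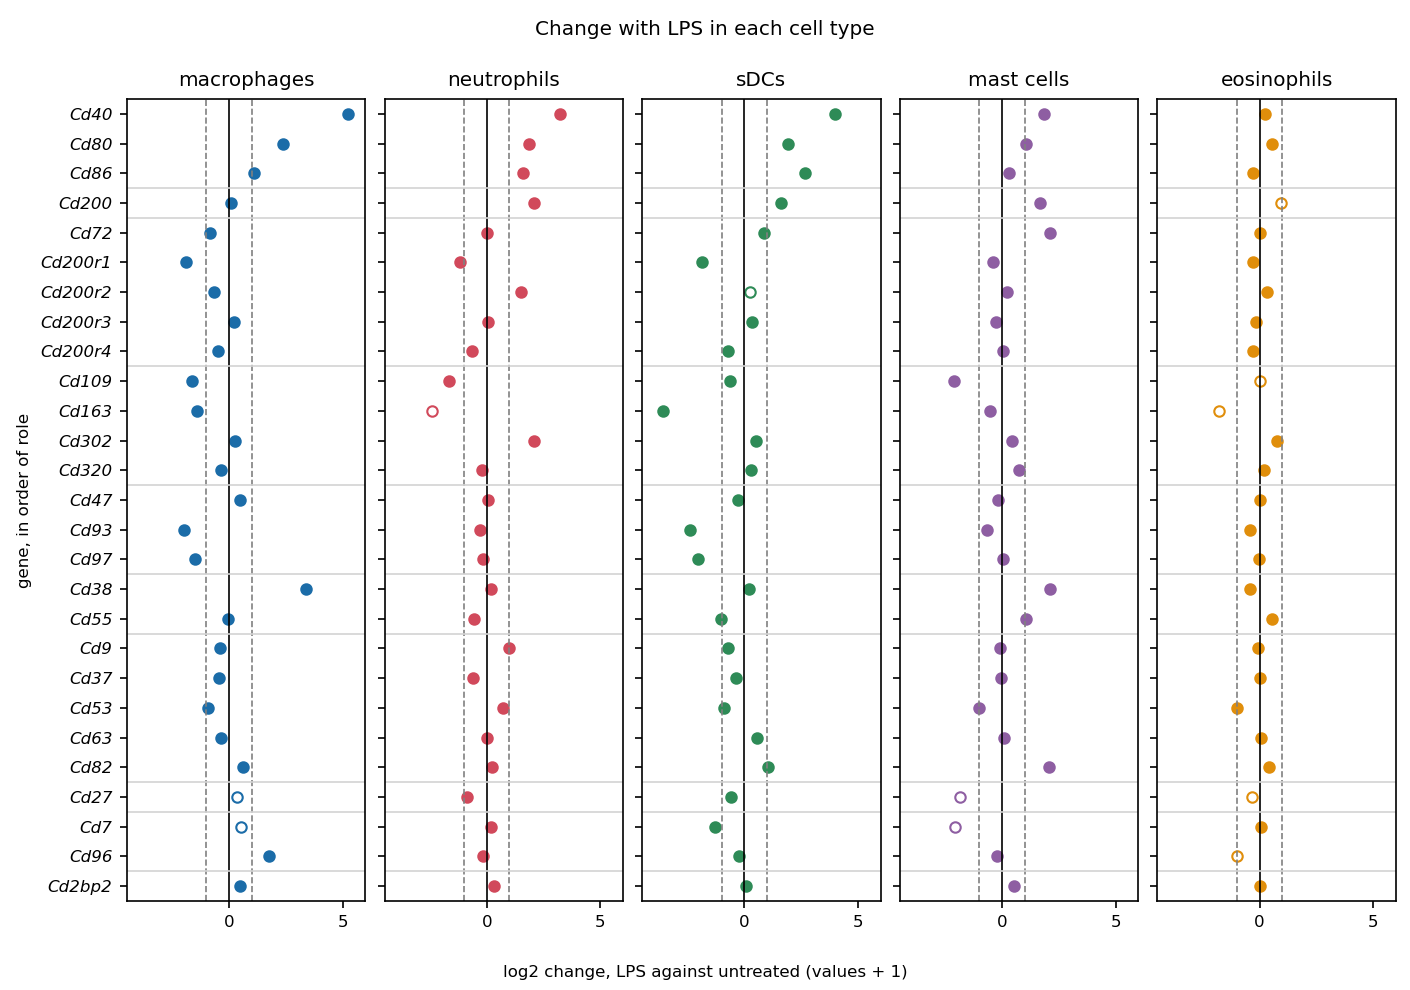
Points are the log2 change of each gene with LPS against untreated in 5 cell types, on values + 1. Open points are genes under 10 in every group of that cell type, dashed lines mark 2-fold. Cd40 lies furthest to the right in macrophages (5.22), neutrophils (3.22) and sDCs (4.01), and no filled point reaches a line in eosinophils.

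Cd40 had the largest change with LPS of the members in macrophages, neutrophils and sDCs, and among those that reached 10 in mast cells Cd109, Cd72, Cd38 and Cd82 had larger ones. Cd40, the receptor through which T cells activate antigen-presenting cells, was 264.5 in untreated macrophages, 523.5 with IL-10, 9902.5 with LPS and 6227 with both. In neutrophils the values were 290, 275.5, 2718.5 and 1295, in sDCs 1824.5, 2292.5, 29391.5 and 25934, and in mast cells 66.5, 61, 242 and 194. LPS against untreated was 37.3-fold in macrophages, 9.35-fold in neutrophils, 16.1-fold in sDCs and 3.60-fold in mast cells, whereas eosinophils went from 146 to 170.5 (0.22 on the log2 scale). Both groups with LPS lay above both groups without it in each of the 4 cell types.

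Cd80, one of the B7 ligands of CD28 and CTLA-4 on T cells, went from 212 to 1085 with LPS in macrophages (5.10-fold), from 455.5 to 1631.5 in neutrophils (3.58-fold) and from 2102 to 7933.5 in sDCs (3.77-fold). In mast cells it went from 10 to 22 (2.09-fold), a low level, and in eosinophils from 491.5 to 709.5 (0.53 on the log2 scale). Cd86, the other B7 ligand, went from 504 to 1072 in macrophages (2.12-fold), from 244 to 728.5 in neutrophils (2.98-fold) and from 2344 to 14843.5 in sDCs (6.33-fold). It stayed low in mast cells, at 11 and 14, and was 140 and 116 in eosinophils. Macrophages had the larger fold of the 2 cell types for Cd80 and sDCs for Cd86, and no test of that difference was possible on means.

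The DNA just before these 3 genes is shown because they were raised together. The lines give the 250 bases upstream of the 5'-most annotated start of each gene's listed transcripts, 5' to 3' on the gene's strand, read from the NCBIM37 (mm9) genome with the GENCODE vM1 annotation. Cd40 lies at chr2:164881127-164898448 (plus strand) and its line is chr2:164880877-164881126. Cd80 lies at chr16:38459013-38495821 (plus strand) and its line is chr16:38458763-38459012. Cd86 lies at chr16:36603955-36666167 (minus strand) and its line is chr16:36666168-36666417. Capitals mark a match to the NF-kB consensus.
Cd40: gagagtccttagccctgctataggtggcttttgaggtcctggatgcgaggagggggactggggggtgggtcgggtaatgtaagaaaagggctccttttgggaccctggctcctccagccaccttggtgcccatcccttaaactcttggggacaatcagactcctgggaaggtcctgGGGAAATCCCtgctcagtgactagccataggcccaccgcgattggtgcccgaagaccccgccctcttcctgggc
Cd80: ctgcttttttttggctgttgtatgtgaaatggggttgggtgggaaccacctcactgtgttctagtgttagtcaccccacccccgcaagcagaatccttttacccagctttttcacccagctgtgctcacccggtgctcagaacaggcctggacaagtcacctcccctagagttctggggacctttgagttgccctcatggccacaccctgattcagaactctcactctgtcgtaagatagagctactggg
Cd86: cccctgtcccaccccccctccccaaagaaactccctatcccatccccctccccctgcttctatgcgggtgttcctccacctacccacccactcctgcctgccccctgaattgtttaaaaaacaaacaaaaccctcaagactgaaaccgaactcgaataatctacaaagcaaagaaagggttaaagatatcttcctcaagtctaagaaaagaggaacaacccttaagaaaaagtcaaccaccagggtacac

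The window searched ran 250 bases upstream to 50 bases downstream of the start, on both strands. A match to the NF-kB consensus stood in 10.4% of 6503 promoters and in 1 of the 28, that of Cd40, at bases -74 to -65 from the start. The STAT element TTCNNNGAA stood in 7.29% of promoters and in Cd96 and Cd97. The interferon-stimulated response element (ISRE) stood in 3.91% and in Cd2bp2. A match describes letters in this window and no more.

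The Cd40 value came from 6 transcripts, and their make-up differed between groups, a feature singled out after its values were seen. The longest, of 2986 exon bases and 867 coding bases, held 66.5 of 66.5 in untreated mast cells, 146 of 146 in eosinophils and 280 of 290 in neutrophils. With LPS the 1596-base transcript, which codes for 780 bases, went from 0 to 937 in neutrophils and from 8.5 to 3979 in macrophages. In sDCs it was the main one already without LPS, at 972 of 1824.5, and was 14288.5 with LPS. These are model estimates of how reads fall to overlapping transcripts.

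**Figure D3:**
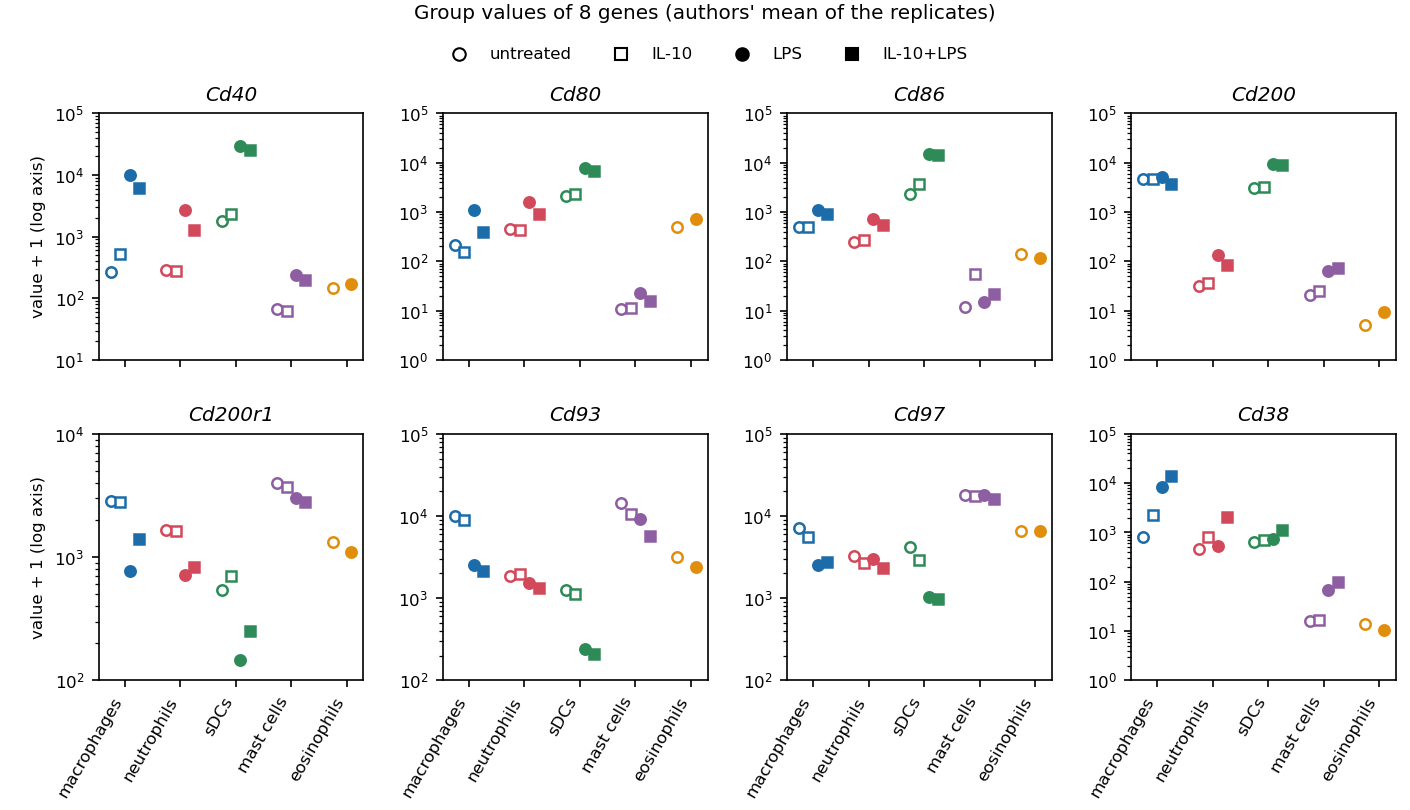
Points are group values + 1 (log axis) of 8 genes by cell type, open for groups without LPS, filled for groups with LPS, circles without and squares with IL-10. Filled points lie above open ones for Cd40 in macrophages, neutrophils, sDCs and mast cells, and below them for Cd93 and Cd97 in macrophages and sDCs.

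In sDCs and neutrophils, and in no other cell type, the ligand and the receptor of the CD200 pathway were called in opposite directions with LPS. Cd200 is a membrane glycoprotein that restrains myeloid cells through the inhibitory receptor Cd200r1. Cd200 went from 3106 to 9399.5 with LPS in sDCs (3.03-fold), from 31 to 134.5 in neutrophils (4.23-fold) and from 19.5 to 63.5 in mast cells (3.15-fold). In macrophages it was high throughout, at 4759.5 untreated and 5011 with LPS, and in the presence of IL-10 at 4610.5 without and 3762.5 with LPS. In eosinophils it was 4 and 8.5.

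Cd200r1 went from 2866.5 to 777.5 with LPS in macrophages (3.68-fold lower), from 537.5 to 146 in sDCs (3.66-fold lower) and from 1651.5 to 719.5 in neutrophils (2.29-fold lower). Mast cells (4003 and 3038.5) and eosinophils (1326 and 1097) had smaller differences in the same direction. With IL-10 present, LPS gave 2825 and 1415 in macrophages and 701.5 and 250.5 in sDCs. Cd200r1 was thus lower with LPS in 9 of 9 pairs of groups (5 pairs without IL-10 and 4 with it, which share no library). Of 20 members measured in every cell type, 2 did so (Cd200r1 and Cd93), against 12.5% of all genes, and 4 were higher in all 9 (Cd40, Cd80, Cd302 and Cd2bp2), against 6.29%.

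The related receptors lie beside Cd200r1 on chromosome 16, in the order Cd200r1 (chr16:44765849-44795091), Cd200r4 (chr16:44820841-44839247), Cd200r2 (chr16:44867210-44915953) and Cd200r3 (chr16:44943791-44981493). Cd200r3 and Cd200r4 were not called with LPS anywhere. Cd200r2 went from 22 to 64 in neutrophils with LPS (2.83-fold) and was 18.5 with both agents. As paralogues these genes can share reads, so their split is uncertain. Cd72, an inhibitory lectin best known on B cells, went from 232.5 to 1007 with LPS in mast cells (4.32-fold) and was 346.5 with IL-10 and LPS. In macrophages Cd72 was 1350 untreated and 762.5 with LPS, a difference under 2-fold.

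In the role list of scavenger, lectin and endocytic receptors, Cd109 and Cd163 were called lower with LPS and Cd302 higher. Cd109 is in that list although it belongs to the alpha-2-macroglobulin family. Most of the downward calls were at low values. Cd109 went from 1775 to 568 in macrophages (3.12-fold lower) and was 407.5 with both agents. Its called changes in neutrophils (15 to 4) and mast cells (16.5 to 3) were at low values. Cd163, the receptor that clears haemoglobin bound to haptoglobin, was 24.5 in untreated macrophages, 88.5 with IL-10, 8.5 with LPS and 7 with both. In sDCs it went from 40.5 to 2.5 with LPS (11.9-fold lower) and from 21.5 to 2 in the presence of IL-10, again low values. Cd302 went the other way, from 119.5 to 512 in neutrophils (4.26-fold). Cd320, the receptor for cobalamin bound to its carrier, was between 46 and 208.5 in all groups.

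The adhesion receptors Cd93 and Cd97 were lowered at least 2-fold in macrophages and sDCs and did not reach 2-fold in the other cell types. Cd93, a C-type lectin-like protein of phagocytes and endothelium, went from 10035 to 2511 in macrophages (4.00-fold lower) and from 1258.5 to 239 in sDCs (5.25-fold lower). Mast cells went from 14566.5 to 9322, neutrophils from 1879 to 1537.5 and eosinophils from 3156.5 to 2371.5, lower by less than 2-fold. The pairs with IL-10 gave 9069 and 2156 in macrophages and 1131 and 210 in sDCs. They gave 10445.5 and 5644.5 in mast cells and 1967.5 and 1314 in neutrophils, also under 2-fold. Cd97 went from 7145 to 2514 in macrophages (2.84-fold lower) and from 4257 to 1035.5 in sDCs (4.11-fold lower), and the pairs with IL-10 gave 5539 and 2732, and 2923.5 and 982. It was 17933.5 and 18241 in mast cells and 6636.5 and 6497.5 in eosinophils. Whether the changes differ between cell types was not tested.

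Cd47, the signal that restrains phagocytosis through SIRP alpha, differed by less than 2-fold with either agent in every cell type, from 3794 in untreated macrophages to 15300 in neutrophils with both. Its transcripts moved within that sum. The 1197-base transcript, which codes for 909 bases against 972 for the 5277-base one, held 24.0% of the gene's value in untreated macrophages and 32.6% with LPS. It went from 15.1% to 21.1% in neutrophils, from 18.8% to 32.0% in sDCs, from 11.5% to 18.8% in mast cells and from 11.2% to 12.0% in eosinophils. The share was higher with LPS in 9 of 9 pairs.

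Of 24 transcripts with a mean share of at least 10% in 11 members that had a sum of 50 in every group, 2 had a higher share with LPS in all 9 pairs (1.07% of 5682 transcripts of all genes under the same limits) and 4 a lower one (1.46%). Shares of one gene sum to 100%, so the 4 include the longer transcripts of Cd47 and Cd2bp2, and the fourth was the main transcript of Cd9, lower by at most 1.09 percentage points. The other with a higher share was the 1309-base transcript of Cd2bp2, which went from 11.2% to 24.6% in sDCs, from 27.3% to 34.1% in macrophages and from 16.3% to 25.7% in neutrophils. For both genes the transcript with the higher share was the shorter one (the others of Cd2bp2 have 3284 exon bases). These transcripts were singled out after their values were seen.

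**Figure D4:**
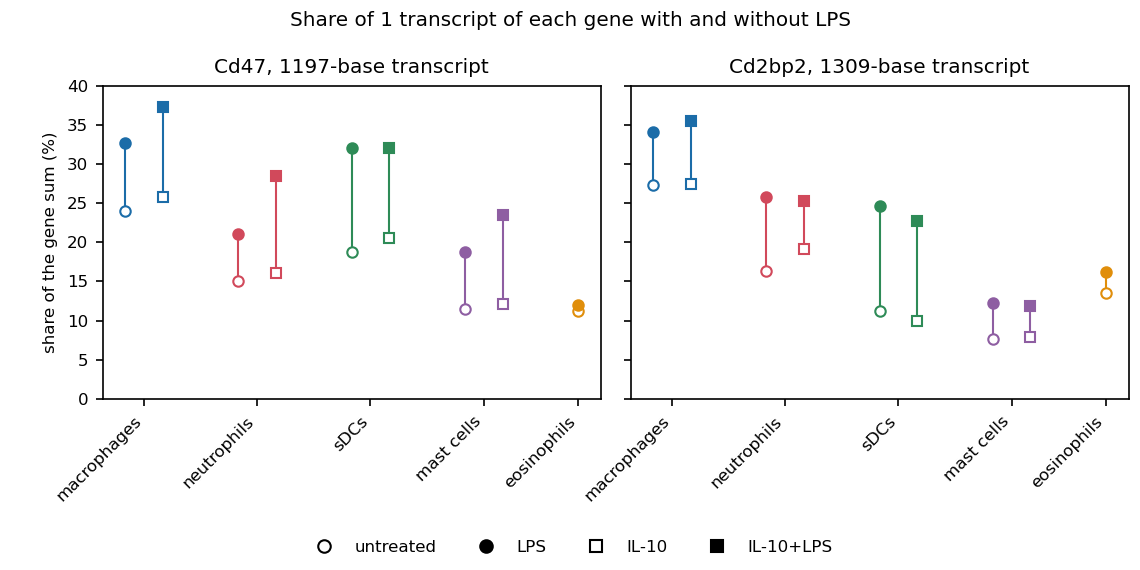
The vertical axis is the percent of a gene's value that came from 1 transcript, for Cd47 (left) and Cd2bp2 (right), with open points for groups without LPS joined to filled points for groups with LPS, circles without and squares with IL-10. The filled point is the upper one in all 9 pairs of both genes, by 0.77 to 13.2 percentage points for Cd47 and 2.79 to 13.4 for Cd2bp2.

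Of the ectoenzymes and complement regulators, Cd38, which turns NAD into the calcium messenger cyclic ADP-ribose, went from 827.5 to 8548.5 with LPS in macrophages (10.3-fold) and from 15 to 67.5 in mast cells (4.28-fold). In neutrophils (464 and 521) and sDCs (654 and 746) it differed little with LPS alone. Cd55 was raised in mast cells, from 57590.5 to 119376 (2.07-fold), and lowered in sDCs, from 289 to 139.5 (2.06-fold lower), and the sDC value was under 2-fold after centring on the median of all genes (-0.91). In eosinophils Cd55 went from 10509 to 15348.5 (0.55 on the log2 scale).

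The 5 tetraspanins had 3 calls with LPS in 25 comparisons of gene and cell type (12%, where 15.8% of those of all genes were called), 2 of them in Cd82. Cd82 went from 2049.5 to 8672.5 with LPS in mast cells (4.23-fold) and from 3575 to 7401 in sDCs (2.07-fold), and was higher with LPS by less than 2-fold in macrophages (2083 and 3161.5), neutrophils (3833 and 4557) and eosinophils (2641 and 3569). Cd53 was lower with LPS in macrophages (27845.5 and 14836), sDCs (6272 and 3372.5), mast cells (33963 and 16897) and eosinophils (122520 and 62327), and higher in neutrophils (31699 and 52789.5). Of those, the mast cell value passed 2-fold (2.01-fold lower), and it did not after centring (-0.93). Cd9, Cd37 and Cd63, a marker of late endosomes and granules, were not called with LPS. Their log2 changes ran from -0.70 for Cd9 in sDCs to 0.97 for Cd9 in neutrophils.

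Among genes best known from lymphocytes, Cd7 went from 846.5 to 349 with LPS in sDCs (2.42-fold lower), where Klrk1 went from 910.5 to 364 and Bcl11b from 172 to 171.5. Cd96, a receptor for nectins, went from 3 to 12.5 in macrophages, a low level, in the columns where B cell and natural killer markers were also higher with LPS. Cd96 was 513 and 437 in mast cells. Cd27 was not called with LPS.

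The rise or fall with LPS could be read again in cells that had IL-10, since those pairs of groups share no library with the first. The later harvest with LPS and, in macrophages, the earlier library without it are in both pairs. LPS cannot be told apart from them here either. In this second comparison, LPS with IL-10 against IL-10, 4 members were raised and 5 lowered in macrophages (10.1% and 12.6% of all genes), which centring made 5 and 4. In neutrophils 5 were raised and none lowered (6.12% and 5.68%), in sDCs 5 were raised and 6 lowered (7.69% and 9.32%), and in mast cells 5 were raised and 2 lowered (3.75% and 5.01%).

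Some of these genes were called in the same direction in both pairs, and in sDCs all the raised ones were. In macrophages Cd38, Cd40 and Cd80 were among those raised in both pairs (8.18% of all genes) and Cd109, Cd163, Cd93 and Cd97 lowered in both (9.7%). In neutrophils Cd40, Cd80, Cd200 and Cd302 were raised in both (4.54%) and none lowered (4.14%). In sDCs Cd40, Cd80, Cd86, Cd82 and Cd200 were raised in both (6.4%) and Cd93, Cd97, Cd163, Cd7 and Cd200r1 lowered (7.29%). In mast cells Cd38, Cd40, Cd82 and Cd200 were raised in both (2.77%) and Cd109 lowered (2.9%).

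IL-10 was compared with no treatment, and IL-10 followed by LPS with LPS alone, to see how the cytokine bore on these molecules. Given alone, it raised 3 of 26 members in macrophages (2.34% of all genes) and 2 of 25 in mast cells (2.25%), and lowered none in either (2.14% and 2.79%). No member was called in neutrophils (1.26% raised and 0.908% lowered of all genes) or sDCs (1.6% and 0.826%). The macrophage genes were Cd38 (827.5 to 2279, 2.75-fold), Cd163 (24.5 to 88.5, 3.51-fold) and Cd96 (3 to 8). Cd40 in macrophages (264.5 to 523.5) was just under 2-fold, and centring made the macrophage count 4. The mast cell genes were Cd86 (11 to 53.5, 4.54-fold) and Cd200r2 (19 to 41), both low.

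With LPS, IL-10 lowered Cd80 in macrophages from 1085 to 388 (2.79-fold lower), together with Cd200r2 (6 to 1), and raised none of 26 (4.58% of all genes lowered and 3.12% raised). In neutrophils 2 members were raised and 3 lowered (3.06% and 3.87%). Cd38 went from 521 to 2088.5 (4.00-fold) and Cd40 from 2718.5 to 1295 (2.10-fold lower). The other calls there, Cd109, Cd200r2 and Cd96, were at values of 64 or less. In mast cells Cd72 went from 1007 to 346.5 (2.90-fold lower) and the tetraspanin Cd9 from 3917 to 1685 (2.32-fold lower), with none raised (4.66% lowered and 2.88% raised). In sDCs Cd302 went from 291.5 to 675.5 (2.31-fold), and none was lowered (2.61% raised and 2.08% lowered).

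The co-stimulatory genes thus stood high with LPS in sDCs whether or not IL-10 was given. There Cd40 was 29391.5 without and 25934 with IL-10, Cd80 was 7933.5 and 6915.5, and Cd86 was 14843.5 and 14568.5. In macrophages the same pairs were 9902.5 and 6227, 1085 and 388, and 1072 and 897.5. In neutrophils they were 2718.5 and 1295, 1631.5 and 922, and 728.5 and 538. The differences between cell types were not tested.

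By the study's scheme, harvest came longer after IL-10 in the pairs with LPS. The pairs without and with LPS thus differ in that time as well as in LPS. No member was raised or lowered at least 2-fold by IL-10 both alone and with LPS in the same cell type. Of all genes, 0.577% were raised in both and 0.709% lowered in macrophages, 0.504% and 0.286% in neutrophils, 0.496% and 0.264% in sDCs, and 1.24% and 1.52% in mast cells. A few members had the same direction with IL-10 throughout, at sizes from slight to over 2-fold. Cd38 and Cd302 were higher with IL-10 in 8 of 8 pairs of groups (4 cell types, without and with LPS), among 23 members measured in all 4 cell types, where 3.04% of all genes were. Cd302 in sDCs went from 205 to 368 without LPS and from 291.5 to 675.5 with it, and in neutrophils from 119.5 to 155 and from 512 to 968. Cd38 in macrophages went from 8548.5 to 13998.5 with LPS, beside the rise without it. In mast cells the differences were slight, with Cd38 at 15 and 15.5 without LPS and Cd302 at 36 and 37.5 with it.

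Cd9 and Cd200r3 were lower with IL-10 in 8 of 8 pairs (3.12% of all genes). For Cd9 the pairs were 13343 and 11076, and with LPS 10192 and 5929.5, in macrophages, and 4162 and 2528, and with LPS 3917 and 1685, in mast cells. In sDCs they were 4170 and 4093, and 2558.5 and 2530, so the size there was slight. Cd200r3 in mast cells was 16772 and 12668, and with LPS 14144.5 and 10140, and its difference in neutrophils without LPS (173.5 and 171.5) was smaller than the median shift of all genes there. Cd63 in mast cells was 16820.5 and 30212, and with LPS 18158.5 and 30484, under 2-fold each time.

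**Figure D5:**
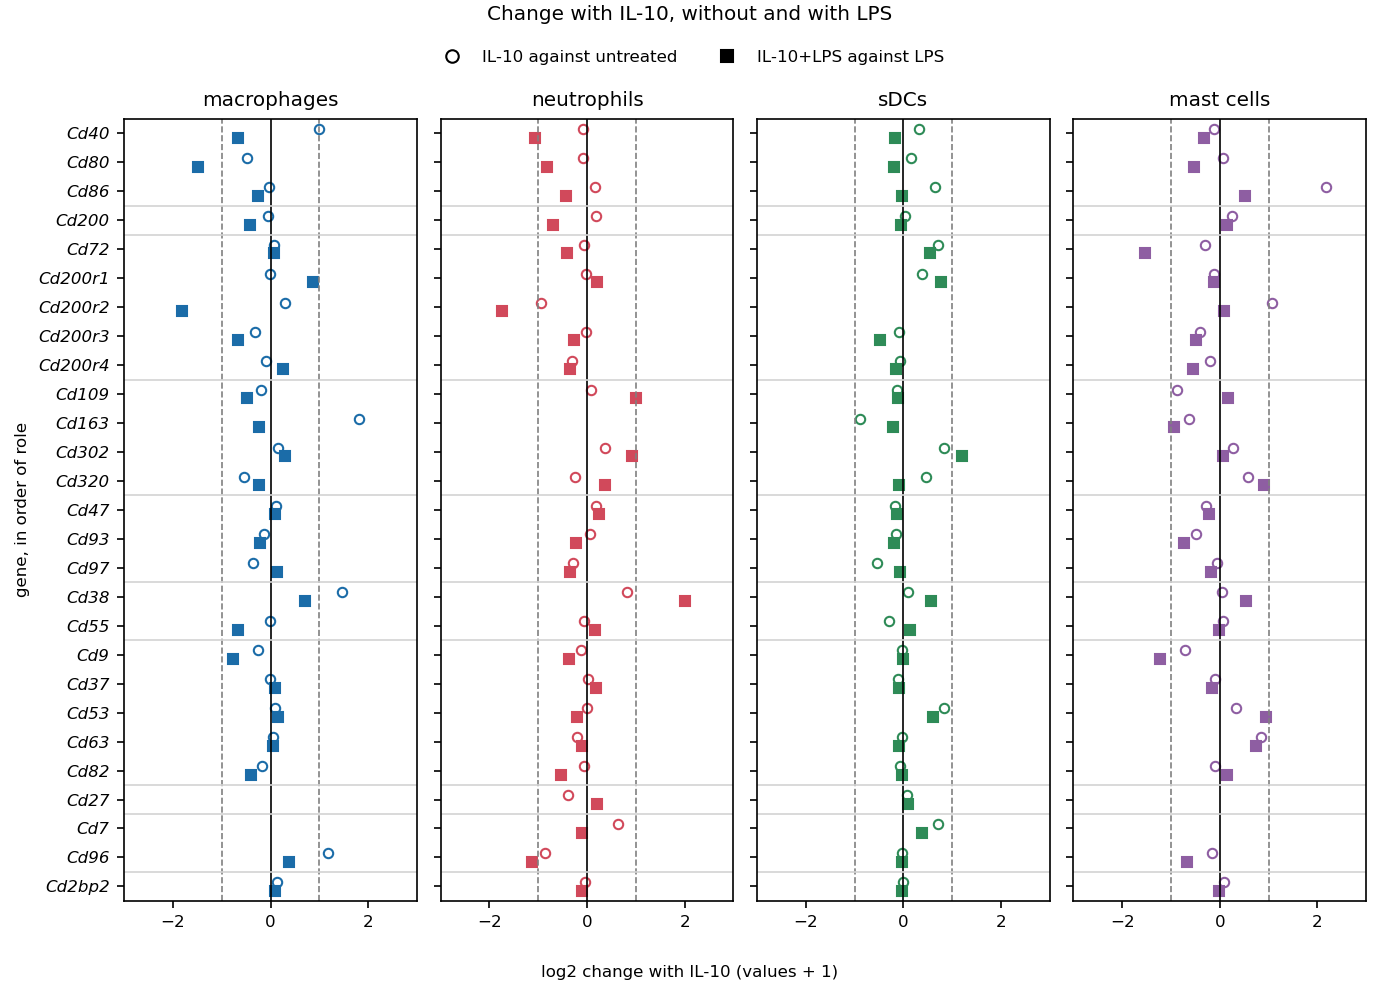
Points are the log2 change of each gene with IL-10 on values + 1, open circles without LPS and filled squares with LPS, in 4 cell types. Genes under 10 in every group of a cell type are left out and dashed lines mark 2-fold. The filled squares of Cd80 in macrophages (-1.48) and Cd38 in neutrophils (2.00) lie outside the lines, and for no gene do both points of a cell type lie beyond the same line.

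Other genes of the same role lists were read beside these, 19 of 51 listed being in the table. With LPS, 7 of 18 that reached 10 were raised and 4 lowered in macrophages (12.7% and 14.8% of all genes), and 4 and 3 of 18 in neutrophils (8.71% and 7.88%). In sDCs 6 and 3 of 17 were (9.04% and 11.5%), in mast cells 2 and 1 of 17 (4.76% and 5.46%), and in eosinophils 2 and 1 of 15 (2.16% and 0.702%). Icosl, another co-stimulatory ligand, went from 128.5 to 2197 with LPS in macrophages and was 277.5 with both agents. Tnfsf9, the ligand of the receptor 4-1BB, went from 124.5 to 2127.5 in macrophages and from 105.5 to 2296.5 in sDCs. The adhesion molecule Icam1 went from 524 to 1458 with LPS in eosinophils, where no CD-numbered gene was called, and from 1248 to 12941.5 in macrophages. In the list of scavenger, lectin and endocytic receptors, Mrc1 went from 8357.5 to 1998 and Clec7a from 18533.5 to 6078 in macrophages. Both were lower, like Cd163 and Cd109 of that list, whereas Marco went from 2002 to 5425.5.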

How the data were processed

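1 table of the whole series gave the means of 36 libraries (18 groups of 2). The remaining 1 of the 37 samples has no column and was left out. The unit of the deposited values is a score: the authors aligned reads to Ensembl transcripts of mm9 with Bowtie 0.12.9, estimated a tag count for each transcript with RSEM 1.2.1, normalised for GC content with EDASeq and averaged the replicates (tools and build as in the submitters' processing notes). All columns share the maximum of 185338 and all values are multiples of 0.5, so ties occur and depth cannot be read from the table. High values recur across genes and groups, as 52789.5 did for Cd53 in neutrophils with LPS and for Clec7a in neutrophils with IL-10. Folds between the highest values may thus be steps between shared levels, which was not tested. Some macrophage LPS libraries were shallower than the rest, per the study's own list. The lowest transcript maximum was 13, so the table holds none below it. Of 17016 lines, 1 was broken and 22 (0.129%) had no gene name, and these were left out.

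Transcripts were summed per gene, and a gene was kept in a cell type where any group there reached 10. Changes were taken on log2(value + 1), with 2-fold as the call, in 13 comparisons (LPS against untreated, IL-10 against untreated, and IL-10 with LPS against LPS). No test was run, because the table has 1 mean per group. Counts of calls stand beside the share of all genes with the same call, which is a description. Variance shares came from sums of squares of log2(value + 1) over the groups. Alternatives were a pseudocount of 10, a minimum of 50 or none, the highest transcript in place of the sum, and centring on the median change.

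1 of the 28 members is in the counts but its values are not reported here. The members, the role and marker lists and the design were chosen with earlier results of these data known. Genes named in the text were members raised or lowered by LPS in at least 3 cell types, the 2 largest changes per comparison with a value of 50, those changed 2-fold by IL-10 both without and with LPS (none), the 2 furthest over the next cell type when untreated, and up to 4 per role. Exceptions are said where they occur. Sequences came from NCBIM37 with GENCODE vM1. Python 3.11.15, numpy 2.4.6, pandas 2.3.3 and matplotlib 3.10.9 were used.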

Additional observations from a re-analysis of the deposited data

Results flagged for a closer look

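Cd55 moved in opposite directions with LPS in 2 cell types, by 1.05 on the log2 scale in mast cells (57590.5 to 119376) and by -1.05 in sDCs (289 to 139.5). The difference was not tested, since each group has 1 mean. Cd55 in mast cells lies among the high values that can recur between groups, and 1 of its transcripts was 94780 there both with LPS and with IL-10 and LPS. In the pairs with IL-10 the changes were 0.97 and -0.62, in the same directions but both under 2-fold. The sDC change without IL-10 was also under 2-fold after centring.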

How the results depend on the processing

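No paired analysis was possible because the columns are group means and carry no replicate, and leaving out each replicate could not be run for the same reason. With a pseudocount of 10 the number of members called in either direction went from 2 to 1 for IL-10 in mast cells, from 2 to 1 for IL-10 with LPS against LPS in macrophages and from 5 to 3 for that comparison in neutrophils. A minimum of 50 gave the same 3 numbers (1, 1 and 3). With no minimum, 2 members were called with LPS in eosinophils in place of 0. With the highest transcript in place of the sum, 1 member was called with IL-10 in neutrophils and 1 in sDCs, each in place of 0, and 4 in place of 2 for IL-10 with LPS against LPS in macrophages. The other counts stayed within 1.5 times, and no call changed sign. Of 54 calls over the 13 comparisons, 45 were kept with a pseudocount of 10 and 52 after centring. The highest transcript kept 50 of 52. The minimum sets only which genes are compared, so 54 of 54 kept with none and 44 of 44 with 50 were fixed in advance. The rest of the 54 calls were in genes under 50 in every group of the cell type and were not compared. Calls lost with a pseudocount of 10 were at low values (Cd96, Cd109, Cd163, Cd200r2 and Cd80 in mast cells), as its construction implies. Without replicates, the size of a change cannot be set against error, and genes under about 50 have the least certain folds.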
